A study of Mus musculus with 4 samples.

Results

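Metallothioneins and the zinc-handling genes around them were read in single kidney cells after ischemia-reperfusion injury, by taking the rows of Mt1, Mt2, Mtf1, Slc30a1 and Slc39a14, 5 of the 27998 genes in each count matrix, and summing their counts by library and cell class. The mice carried BAC-CluGFP, a bacterial artificial chromosome transgene that marks cells expressing Clu (clusterin) with GFP, and only GFP+ kidney cells from fluorescence sorting were sequenced, so every library, the control included, is a selection of cells and not a whole kidney. There were 4 libraries, 1 for each group: kidneys taken at day 2, at day 7 and at day 30 after 35 min of ischemia-reperfusion injury (IRI), and kidneys of untreated mice of the same transgenic line. The labels do not state age, sex, strain background or how many animals went into a library, and they call the control untreated, not sham-operated. With 1 library a group there is no replicate, so no test was made: differences are ratios with intervals for counting error only, and neither the spread between mice nor differences in dissociation and sorting are in them.

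Metallothioneins are small proteins whose many cysteines bind zinc and copper, and Mt1 and Mt2 are the broadly expressed pair. The zinc-sensing transcription factor MTF1, made from Mtf1, binds metal response elements in their promoters, and Slc30a1, which encodes the zinc exporter ZnT1 of the cell membrane, is another of its known targets. Slc39a14 encodes ZIP14, a cell membrane importer of zinc, iron and manganese that is known in liver to be raised by interleukin-6 in the acute phase. Metallothioneins are also known to be induced by glucocorticoids and oxidants, and in kidney they are best known for binding cadmium.

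In mm10 coordinates Mt2 lay on chromosome 8 at chr8:94172664-94173568 and Mt1 downstream of it at chr8:94179082-94180327, both on the plus strand with 3 exons in the principal transcript, with 5513 bases between them. Mtf1 lay at chr4:124802104-124849800 on the plus strand (12 exons), Slc30a1 at chr1:191906767-191913247 on the plus strand (2 exons) and Slc39a14 at chr14:70303469-70351425 on the minus strand (10 exons). Antisense or opposite-strand genes overlap Mt2 (Gm45774, with no row in the files), Slc30a1 (1700034H15Rik) and Mtf1 (1110065P20Rik). Of the 451 words of 50 bases in the last 500 bases of each principal transcript, where a 3′ library reads, 0 were shared with another gene for each of the 5 genes.

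The coding sequences of Mt1 and Mt2 are printed because the gene pair is close in sequence and all results on their ratio rest on telling their reads apart; capitals mark the codons for cysteine, the residue that holds the metal.
Mt1: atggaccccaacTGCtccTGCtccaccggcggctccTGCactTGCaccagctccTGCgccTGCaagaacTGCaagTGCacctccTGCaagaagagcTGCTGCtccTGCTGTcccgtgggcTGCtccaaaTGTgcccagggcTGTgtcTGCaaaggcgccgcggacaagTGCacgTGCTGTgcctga
Mt2: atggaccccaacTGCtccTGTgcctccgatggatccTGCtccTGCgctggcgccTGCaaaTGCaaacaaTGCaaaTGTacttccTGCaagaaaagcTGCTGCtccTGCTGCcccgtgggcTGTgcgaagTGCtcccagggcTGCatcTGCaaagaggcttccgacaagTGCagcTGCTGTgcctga
Each has 186 bases with the stop codon, 61 codons before it and 20 cysteine codons, and all 20 stand at the same positions in both. The pair shared 148 of 186 bases (79.6%).

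Promoters of 4 of the 5 genes were matched by symbol in RefSeq (GRCm38.p6, from 250 bases before to 50 after the transcript start), and 3 are printed because Mt1 and Mt2 were high together and Slc30a1 is a textbook target of the same factor. Capitals mark TGCACNC or TGCGCNC, the core of the metal response element, on either strand; a match on the minus strand reads as its reverse complement.
Mt1, chr8:94178839-94179138, plus strand: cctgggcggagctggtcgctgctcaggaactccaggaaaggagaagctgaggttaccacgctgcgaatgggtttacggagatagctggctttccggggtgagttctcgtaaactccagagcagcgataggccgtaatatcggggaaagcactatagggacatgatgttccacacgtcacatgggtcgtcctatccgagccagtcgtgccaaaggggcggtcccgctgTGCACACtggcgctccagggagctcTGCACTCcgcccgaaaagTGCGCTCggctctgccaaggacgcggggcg
Mt2, chr8:94172368-94172667, plus strand: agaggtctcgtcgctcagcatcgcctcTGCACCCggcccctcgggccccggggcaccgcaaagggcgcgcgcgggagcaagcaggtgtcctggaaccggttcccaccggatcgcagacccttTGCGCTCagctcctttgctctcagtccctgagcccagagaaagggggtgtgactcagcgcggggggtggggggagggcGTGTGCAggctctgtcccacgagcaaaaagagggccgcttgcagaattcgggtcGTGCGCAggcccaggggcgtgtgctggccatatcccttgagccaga
Slc30a1, chr1:191906531-191906830, plus strand: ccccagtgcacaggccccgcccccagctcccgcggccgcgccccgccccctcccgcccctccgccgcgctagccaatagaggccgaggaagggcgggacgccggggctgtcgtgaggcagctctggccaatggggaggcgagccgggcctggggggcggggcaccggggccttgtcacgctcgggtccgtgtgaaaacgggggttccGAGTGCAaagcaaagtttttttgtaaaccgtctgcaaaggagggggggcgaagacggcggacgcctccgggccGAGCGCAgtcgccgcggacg
Mt1 held 3 matches, Mt2 held 4 and Slc30a1 held 2, and no 2 of them overlap. Among 32851 promoters of the same length, 25.7% held at least 1 match, 7.11% at least 2, 1.97% at least 3 and 0.517% at least 4. The Mtf1 promoter held 0 matches, which says only that these letters are not in that window. The transcript starts of these windows are not those of the coordinates given above. For Mt2 the window ends at 94172667, close to the start of 94172664. For Mtf1 the window, chr4:124802299-124802598, lies downstream of the start of 124802104.

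The matrices held 9286 barcodes (untreated), 9023 (day 2), 1930 (day 7) and 6991 (day 30), and 6544, 8286, 1920 and 6390 were kept. Depth and quality differed between libraries: the kept cells of the untreated library had a median of 5153 unique molecular identifiers (UMIs), those of day 2 had 8784.5, those of day 7 had 23368.5 and those of day 30 had 9056. The median share of mitochondrial UMIs was 14.5%, 2.82%, 3.59% and 3.68% in the same order. The lowest UMI total of any day 7 barcode was 18362, against 2335 to 5976 in the other libraries. Pairs of libraries shared 4 to 20 barcodes, at most 0.466% of the smaller library. Cells were put into classes by marker gates, since no cell annotation was used here, and a class name stands for cells that look like that type by these markers. The 10 genes that set a class most apart held 8 of its own markers in principal cells, 6 each in the thick ascending limb, intercalated cells, endothelium and macrophages or monocytes, 3 in the thin limb (led by Npy, Fst and Angpt2) and in urothelium, and 2 in the proximal tubule. In the parietal class they held 2, beside Wt1, a podocyte marker, and in urothelium they also held Sptssb, a thin limb marker. The reporter gene Clu was higher at least 2-fold after IRI in 18 of 19 class comparisons, and it was low in untreated proximal (30.4 CPM, counts per 1000000 UMIs of the class) and thick ascending limb cells (47.1 CPM), although these had passed the GFP sort.

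Mt1 was abundant in distal nephron cells of the untreated kidney and low in the proximal tubule, and at day 2 after IRI it was higher in every class that could be compared. In the untreated library Mt1 stood at 1730 CPM in the thick ascending limb (95% Poisson interval 1694 to 1768), 1378 CPM in distal convoluted or connecting tubule cells, 664 CPM in principal cells of the collecting duct, 358 CPM in intercalated cells and 242 CPM in urothelium. Thin limb (109 CPM, 89.9 to 132), endothelium (105 CPM, 91.6 to 121), pericytes or smooth muscle (101 CPM, 78.8 to 128) and the proximal tubule (98.4 CPM, 94.4 to 102) came last, and their intervals overlap. At day 2 the order was thick ascending limb (5025 CPM), distal convoluted or connecting tubule (3551), thin limb (1957), intercalated (1462) and principal cells (1384), then fibroblasts (1030), urothelium (639), parietal cells (561), macrophages or monocytes (504), dendritic cells (427), endothelium (324), T or NK cells (282), cells of the proximal list (191) and neutrophils (145). Neighbours whose intervals overlap were intercalated and principal cells, urothelium and parietal cells, parietal cells and macrophages or monocytes, and endothelium and T or NK cells. The low end of this order depended on few cells. The 14 T or NK cells with UMIs of 2 or more thick ascending limb markers had 1163 CPM, and the other 130 had 159 CPM. Among cells with fewer than 2 such markers, endothelium had 171 CPM, parietal cells 128 CPM (99.3 to 163) and neutrophils 136 CPM (130 to 143).

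Mt2 followed the same classes at lower counts. The untreated levels of Mt2 were 166 CPM in the thick ascending limb, 135 CPM in distal convoluted or connecting tubule cells, 77.6 CPM in principal cells, 26.9 CPM in urothelium and 13.9 CPM in intercalated cells, with thin limb (10.8 CPM), endothelium (9.08 CPM), the proximal tubule (7.08 CPM) and pericytes or smooth muscle (2.93 CPM, from 2 UMIs) lowest. At day 2 Mt2 reached 1545 CPM in the thick ascending limb, 977 CPM in distal convoluted or connecting tubule cells, 664 CPM in the thin limb, 362 CPM in principal cells, 302 CPM in fibroblasts and 291 CPM in intercalated cells, and it was lowest in neutrophils (37.2 CPM), macrophages or monocytes (34.0 CPM) and cells of the proximal list (32.3 CPM), whose intervals overlap.

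**Figure D1:**
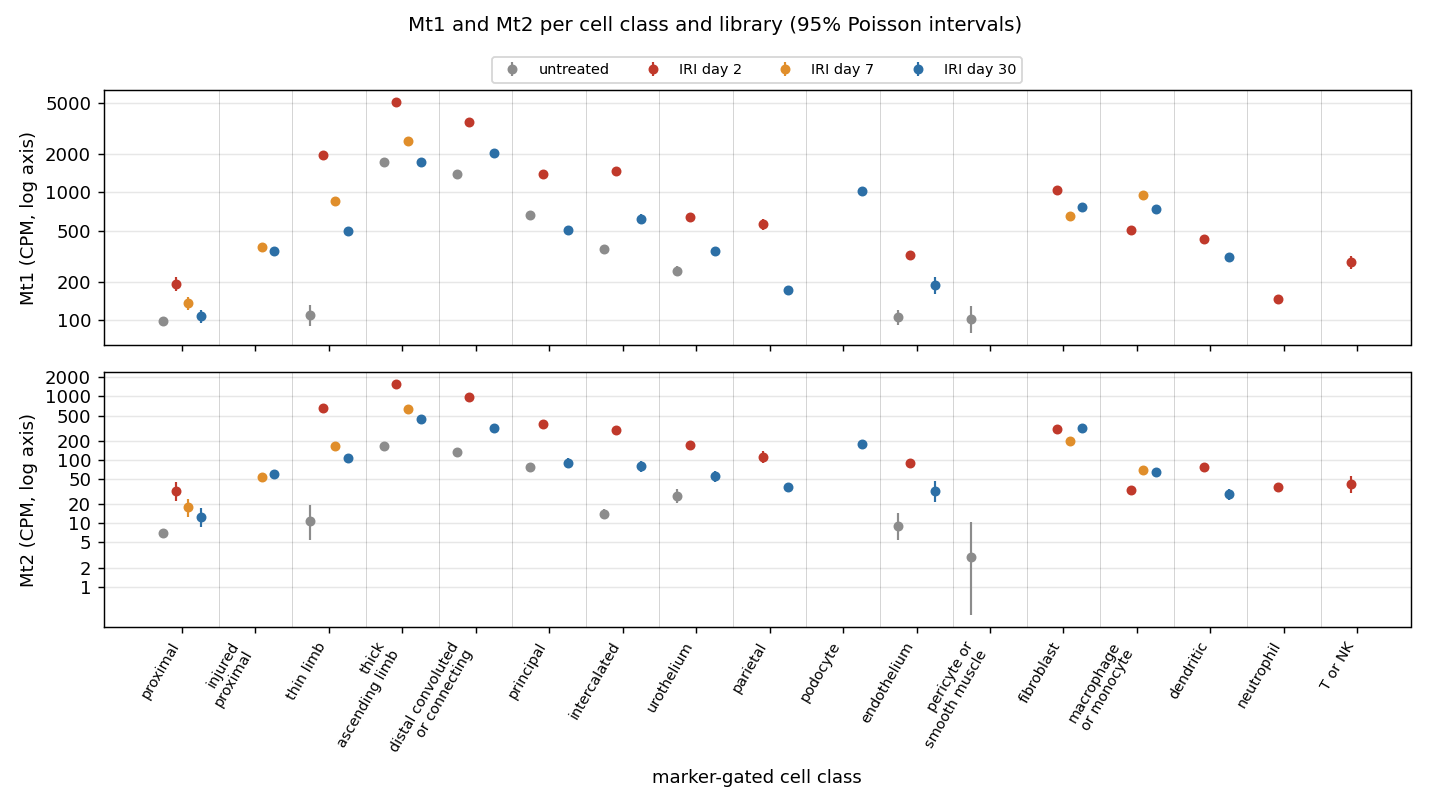
Level of Mt1 (upper panel) and Mt2 (lower panel) in counts per 1000000 UMIs on log axes, for each marker-gated class with at least 50 cells; each point is 1 library and bars are exact 95% Poisson intervals. The day 2 points lie above the untreated points in every class that has both, with the thick ascending limb highest at 5025 CPM for Mt1 and 1545 CPM for Mt2.

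Differences were read as ratios of CPM, IRI over untreated, in the 8 classes with at least 50 cells in both libraries, which gave 19 comparisons: 8 at day 2, 3 at day 7 and 8 at day 30. A gene was measured in a comparison with at least 20 CPM in 1 of the libraries and at least 20 UMIs in both together, and was called higher or lower when the ratio was at least 2-fold with a 95% interval that left out 1. Over all genes measured, the rule called 14.4% of gene and class pairs higher and 8.21% lower; by time it called 10.3% higher and 8.85% lower at day 2, 22.6% higher and 9.71% lower at day 7, and 15.2% higher and 7.05% lower at day 30. Mt1 was measured in all 19 comparisons and called higher in 12 of them and lower in 0, with a median ratio of 2.63. By time these were 8 of 8 at day 2, 2 of 3 at day 7 and 2 of 8 at day 30. Mt2 was called higher in 18 of 19 comparisons and lower in 0, with a median ratio of 6.43, and its ratio was above that of Mt1 in each comparison. The 1 exception for Mt2 was principal cells at day 30, at 1.16 (0.925 to 1.44). The 3 IRI libraries are set against the same untreated library, so the comparisons of 1 class are not independent.

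**Figure D2:**
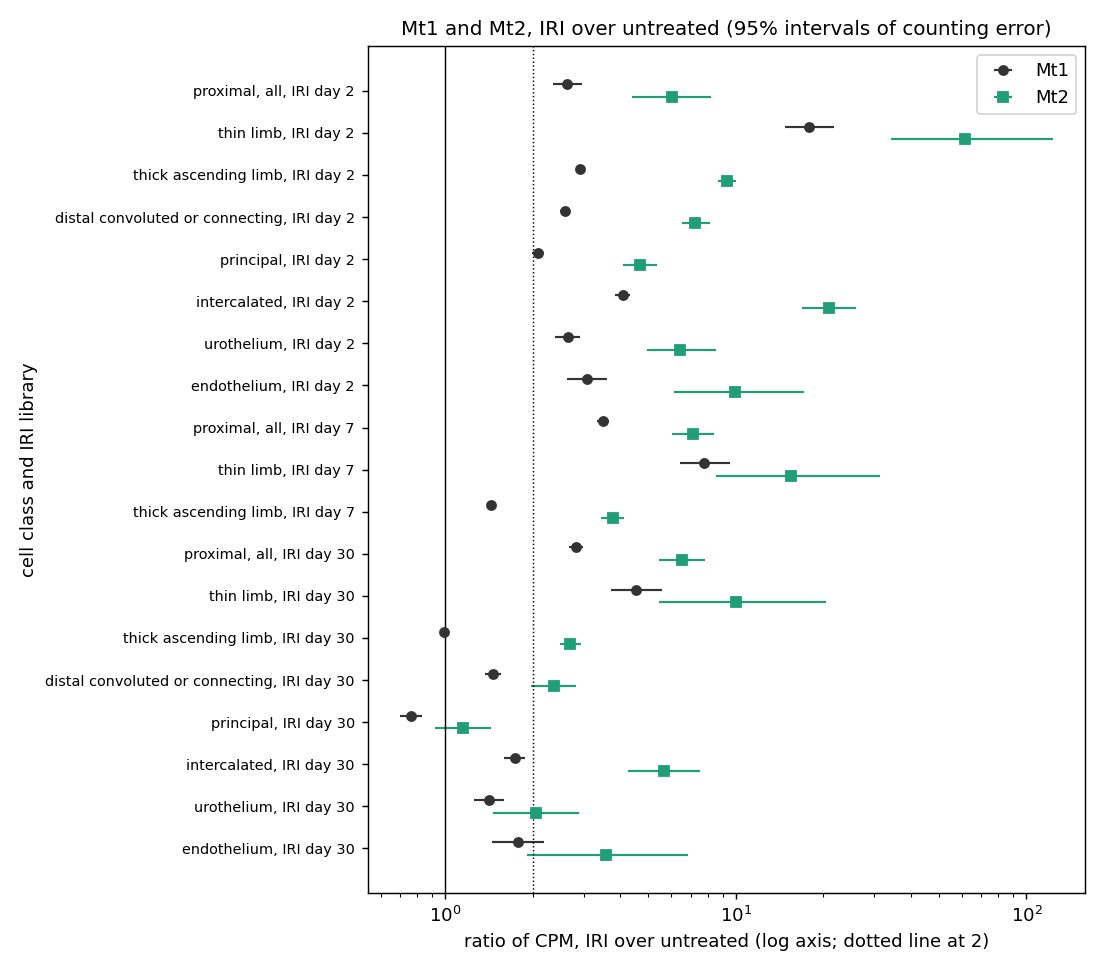
Ratio of CPM, IRI over untreated, on a log axis, for Mt1 (black circles) and Mt2 (green squares) in the 19 class comparisons; bars are 95% intervals of counting error, the solid line is at 1 and the dotted line at 2. The Mt2 point lies right of the Mt1 point in each row, and the thin limb at day 2 lies farthest right at 17.9 for Mt1 and 61.3 for Mt2.

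The thin limb of Henle's loop had the highest ratios. Mt1 had 109 CPM there in the untreated library, 1957 CPM at day 2, 852 CPM at day 7 and 496 CPM at day 30, giving ratios of 17.9 (14.8 to 21.8), 7.79 (6.44 to 9.52) and 4.54 (3.72 to 5.58). Mt2 had 10.8 CPM, 664 CPM, 168 CPM and 108 CPM in the same order, with ratios of 61.3 (34.1 to 123), 15.5 (8.58 to 31.3) and 9.99 (5.45 to 20.3). Of all genes measured in the thin limb, 8.77% were called higher and 15.8% lower at day 2, 11.3% and 11.8% at day 7, and 10.5% and 9.94% at day 30. The day 2 level was carried by a minority of the 102 cells: the median cell had 175 CPM of Mt1 and the 90th percentile 4512 CPM, and the tenth of cells with most Mt1 held 68.0% of its UMIs after each cell was thinned to 2000 UMIs. The 9 markers of the thick ascending limb were all present in this class at day 2, and their summed level was 1468 CPM at day 2, against 568 CPM in the untreated thin limb. The 44 day 2 cells with UMIs of 2 or more of those markers had 2868 CPM of Mt1 (2732 to 3008), and the 58 cells with fewer had 1196 CPM (1117 to 1280). Among untreated thin limb cells the 22 with fewer than 2 such markers had 196 CPM (134 to 277), and the 47 with more had 92.7 CPM. The difference between day 2 and untreated thus stood in both subsets, at a lower size in cells with few limb markers, but with under 50 untreated cells there it was not counted as a comparison.

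In the thick ascending limb the metallothioneins were high at day 2 and lower later. Mt1 had 1730 CPM in the untreated library, 5025 CPM at day 2, 2494 CPM at day 7 and 1714 CPM at day 30, so that the ratio was 2.90 (2.84 to 2.97) at day 2, 1.44 at day 7 and 0.991 (0.959 to 1.02) at day 30. At day 30 the level could not be told from the untreated one within counting error. Mt2 had 166, 1545, 626 and 447 CPM, and its ratio was still 2.69 (2.47 to 2.93) at day 30. In this class 12.8% of measured genes were called higher and 10.3% lower at day 2, 21.6% and 7.64% at day 7, and 23.7% and 8.04% at day 30. The median measured gene also moved, by 0.13 (log2) at day 2, 0.39 at day 7 and 0.39 at day 30; relative to that median the Mt1 ratio was 1.10 at day 7 and 0.754 at day 30. Nearly every limb cell carried Mt1: with cells thinned to 2000 UMIs, 97.3% had a UMI at day 2 (exact binomial interval 95.4 to 98.6) and 85.3% in the untreated library (81.9 to 88.2). For Mt2 the share with a UMI was 82.8% at day 2 (79.0 to 86.2), against 22.8% in untreated limb cells (19.2 to 26.6). Unthinned shares were 98.0% at day 2 and 51.4% untreated, at median depths of 13542.5 and 6952 UMIs. For scale, neutrophils at day 2, the class lowest in Mt1 with all gated cells counted, had an Mt1 UMI in 22.8% of thinned cells at a median depth of 5057 UMIs. The part of free RNA in this share, or in low shares of other classes, was not tested.

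Cells of the thick ascending limb were also split by claudin. Cells with Cldn10 and no Cldn16 UMI had 5467 CPM of Mt1 at day 2 and 1741 CPM at day 30, against 1050 CPM in the untreated library. Those with Cldn16 and no Cldn10 UMI had 4753 CPM at day 2 and 1449 CPM at day 30 (35 cells), against 1893 CPM untreated. Mt1 was therefore higher in untreated Cldn16 cells than in untreated Cldn10 cells, and lower in them after IRI, with intervals that do not overlap at any of these times.

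Distal convoluted or connecting tubule cells had 3551 CPM of Mt1 at day 2 and 1378 CPM in the untreated library, a ratio of 2.58 (2.48 to 2.67). At day 30 Mt1 had 2016 CPM there, a ratio of 1.46. Mt2 had 977 CPM at day 2, against 135 CPM untreated, a ratio of 7.26 (6.50 to 8.14), and 317 CPM at day 30, a ratio of 2.36 (1.97 to 2.82). The background of calls in this class was 14.1% higher and 9.33% lower at day 2, and 17.1% higher and 4.47% lower at day 30. The day 2 difference was present in cells with a UMI of Slc12a3, the thiazide-sensitive sodium chloride cotransporter of the distal convoluted tubule (3728 CPM of Mt1 at day 2, 1734 CPM untreated), and in cells without one (2179 CPM at day 2, 747 CPM untreated). Principal cells had 1384 CPM of Mt1 at day 2, against 664 CPM untreated, a ratio of 2.08 (1.98 to 2.19). At day 30 principal cells had 507 CPM, and the ratio of 0.764 (0.700 to 0.832) was the single comparison of Mt1 whose interval lay below 1. That difference stood only in principal cells with fewer than 2 thick ascending limb markers, at 366 CPM (79 cells), against 796 CPM untreated (47 cells). Those with 2 or more had 675 CPM (613 to 742, 58 cells), against 653 CPM untreated (624 to 683, 315 cells). Mt2 in principal cells had 362 CPM at day 2 and 89.7 CPM at day 30, against 77.6 CPM untreated. Among all genes of principal cells 7.87% were called higher and 8.33% lower at day 2, with 10.8% and 5.90% at day 30.

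Intercalated cells, the acid-base transporting cells of the collecting duct, had 1462 CPM of Mt1 at day 2, against 358 CPM in the untreated library, a ratio of 4.08 (3.85 to 4.33). Mt2 had 291 CPM there at day 2, against 13.9 CPM untreated, a ratio of 20.9 (16.9 to 26.0), the highest after the thin limb. At day 30 Mt1 had 621 CPM and Mt2 had 79.1 CPM, ratios of 1.73 (1.59 to 1.88) and 5.67 (4.25 to 7.54). Calls over all genes of intercalated cells came to 10.6% higher and 7.59% lower at day 2, and 10.6% higher and 5.17% lower at day 30. The 2 kinds of intercalated cell differed. Cells with Slc26a4, the pendrin of type B cells, and no Slc4a1 UMI had 2235 CPM of Mt1 at day 2 (56 cells) and 949 CPM at day 30 (46 cells), against 443 CPM untreated (226 cells). Cells with Slc4a1, the anion exchanger of type A cells, and no Slc26a4 UMI had 315 CPM at day 2 (260 to 379, 35 cells) and 302 CPM at day 30 (32 cells), against 300 CPM untreated (523 cells). Mt2 was higher at day 2 in both kinds, at 442 CPM in Slc26a4 cells, against 18.2 CPM untreated, and at 54.8 CPM in Slc4a1 cells (33.5 to 84.7), against 11.2 CPM untreated (8.44 to 14.6). The summed level of thick ascending limb markers in intercalated cells was 435 CPM at day 2, against 447 CPM untreated, with Cldn10, Ppp1r1b and Tmem207 at 0 at day 2.

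Urothelium, the lining of the renal pelvis, had 639 CPM of Mt1 at day 2, against 242 CPM untreated, a ratio of 2.64 (2.39 to 2.91), and 344 CPM at day 30. Mt2 had 173 CPM there at day 2 and 55.1 CPM at day 30, against 26.9 CPM untreated. Few other genes were called in urothelium: 3.65% higher and 5.49% lower at day 2, and 5.10% higher and 4.80% lower at day 30. In endothelium, where 8.59% of genes were called higher and 9.19% lower at day 2 and 9.90% and 9.81% at day 30, Mt1 had 324 CPM at day 2, against 105 CPM untreated, a ratio of 3.07 (2.63 to 3.60). That ratio turned on few cells: 22 of the 336 day 2 cells had UMIs of 2 or more thick ascending limb markers, and these stood at 2001 CPM. Over the whole class the summed level of the 9 limb markers was lower at day 2, at 152 CPM with Ppp1r1b and Tmem207 at 0, against 737 CPM untreated with Gabrp at 0. Of the 449 untreated endothelial cells, 271 had UMIs of 2 or more limb markers. Without such cells the endothelial ratio of Mt1 at day 2 was 1.61 (1.25 to 2.10), below the 2-fold rule, from 171 CPM at day 2 and 106 CPM untreated. At day 30 it was 1.01 (0.719 to 1.42) without them and 1.78 with them. Mt2 in endothelium kept a ratio of 10.6 at day 2 without those cells, from 45.4 CPM at day 2 and 4.30 CPM untreated, but the untreated value rests on 3 UMIs and the interval ran up to 52.1.

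The proximal tubule gave 99 day 2 cells, 695 day 7 cells and 781 day 30 cells, against 2894 untreated cells. Most at the later times were cells of the injured list, led by Havcr1 and Vcam1, which are the kidney injury molecule KIM-1 and an adhesion receptor: 6 of the day 2 cells, 613 of day 7 and 532 of day 30, against 11 of the untreated. Over all proximal cells Mt1 had 98.1 CPM in the untreated library, 258 CPM at day 2, 342 CPM at day 7 and 276 CPM at day 30, with ratios of 2.63, 3.49 and 2.82. Mt2 had 7.05, 42.7, 50.1 and 46.0 CPM, with ratios of 6.05 (4.39 to 8.23), 7.11 (6.03 to 8.43) and 6.52 (5.45 to 7.83). The day 2 values depend on the gate: with no proximal markers asked of cells of the injured list there were 135 cells, with 1351 CPM of Mt1 and 400.4 CPM of Mt2, ratios of 13.8 and 56.8. At these times 17.1%, 35.9% and 34.6% of all measured genes were called higher in this class and 3.89%, 9.54% and 7.75% lower, and its median gene lay 0.33, 0.55 and 0.53 (log2) above untreated.

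Split by state, the late difference in Mt1 lay with the injured list. Injured proximal cells had 370 CPM of Mt1 at day 7 (361 to 379) and 348 CPM at day 30 (334 to 362), and cells of the proximal list without the injured list had 135 CPM (120 to 151) and 107 CPM (95.3 to 119) at those times. Against 98.4 CPM untreated, the proximal list alone gave a day 2 ratio of Mt1 of 1.95 (1.69 to 2.23), a day 7 ratio of 1.37 (1.22 to 1.55) and a day 30 ratio of 1.09 (0.962 to 1.22), none of them 2-fold. Mt2 in the injured list had 54.5 CPM at day 7 and 59.98 CPM at day 30, and in the proximal list 32.3 CPM at day 2, 17.8 CPM at day 7 and 12.5 CPM at day 30, against 7.08 CPM untreated. Cells without a UMI of Slc34a1, the phosphate cotransporter of the differentiated proximal tubule, had 414 CPM of Mt1 at day 7 and 364 CPM at day 30, while cells with one had 296 CPM and 219 CPM. Even the injured cells stayed well below the untreated thick ascending limb.

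**Figure D3:**
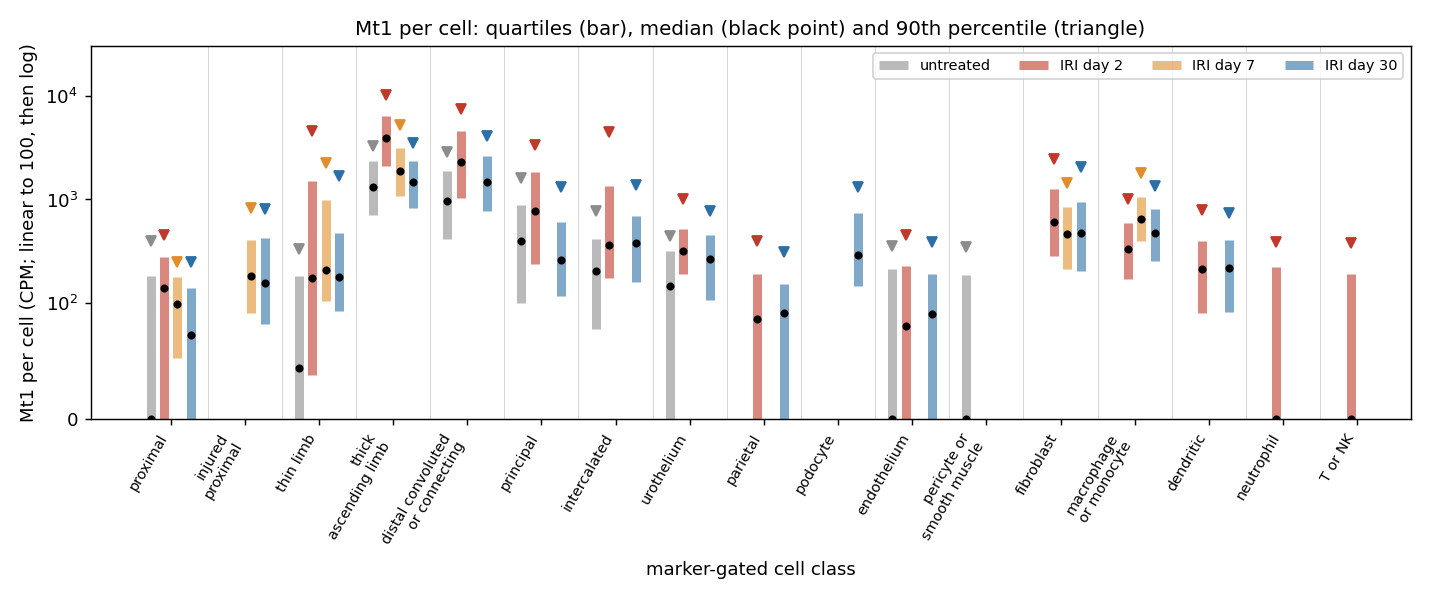
Mt1 per cell in CPM (linear below 100, log above) for classes with at least 50 cells; bars span the quartiles, black points are medians and triangles the 90th percentile, 1 library each. In the thick ascending limb the whole distribution is high at day 2, with a median of 3921 CPM, while the thin limb at day 2 has a median of 175 CPM under a 90th percentile of 4512 CPM.

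Classes with under 50 untreated cells were described after IRI only. Fibroblasts had 1030 CPM of Mt1 at day 2, 649 CPM at day 7 and 766 CPM at day 30, and 302, 201 and 319 CPM of Mt2. Macrophages or monocytes ran another course: Mt1 had 504 CPM at day 2, 956 CPM at day 7 and 733 CPM at day 30, and day 7 over day 2 was 1.90 (1.85 to 1.95). Mt2 in the same cells had 34.0, 69.5 and 65.0 CPM. Macrophages with a UMI of Gpnmb, a glycoprotein of lipid-laden macrophages, had 759 CPM of Mt1 at day 2, 1099 CPM at day 7 and 800 CPM at day 30. Cells with neither Gpnmb nor Chil3 had 456, 696 and 630 CPM at those times, so the higher level at day 7 stood in both kinds. Dendritic cells had 427 CPM of Mt1 at day 2 and 311 CPM at day 30.

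The balance of the pair was compared as the share of Mt2. In the untreated library Mt2 made up 3.74% of the UMIs of Mt1 and Mt2 together in intercalated cells, 6.70% in the proximal tubule, and between 7.93% and 10.5% in the other 6 compared classes. At day 2 the Mt2 share was 25.3% in the thin limb, 23.5% in the thick ascending limb (23.1 to 23.9), 21.6% in distal convoluted or connecting tubule cells, 20.8% in principal cells, 16.6% in intercalated cells (15.1 to 18.2) and 14.2% in the proximal tubule. At day 30 the thick ascending limb still had 20.7% (19.8 to 21.6), against 8.75% untreated (8.19 to 9.35), although its Mt1 level was that of the untreated library. Principal cells had 15.0% at day 30 (12.7 to 17.6), against 10.5% untreated (9.26 to 11.8). Macrophages or monocytes stood apart, with 6.32%, 6.77% and 8.15% at day 2, 7 and 30, and fibroblasts had 22.7%, 23.6% and 29.4%. The share in neutrophils at day 2, 20.5% (18.9 to 22.1), took in the 20.2% of all kept cells of that library; the part of free RNA in their low counts was not tested. A share within the same cells does not depend on the total that counts are scaled to.

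**Figure D4:**
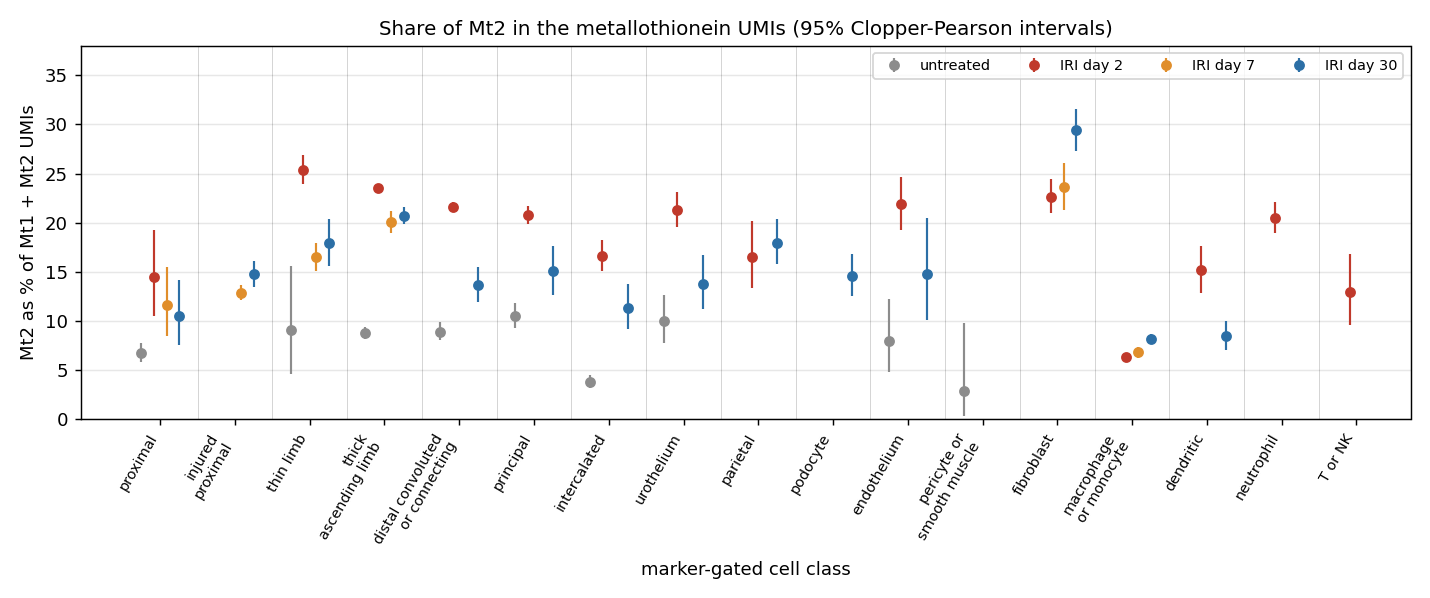
Mt2 as a percent of the UMIs of Mt1 and Mt2 together in each marker-gated class with at least 50 cells, 1 point per library with exact 95% Clopper-Pearson intervals. Untreated points lie between 3.74% and 10.5% among the compared classes, day 2 points of the same classes between 14.4% (cells of the proximal list) and 25.3%, and macrophages or monocytes stay under 9% throughout.

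The Spearman correlation of Mt1 and Mt2 over thinned cells was 0.606 in the thick ascending limb at day 2 (448 cells), 0.425 at day 7, 0.348 at day 30 and 0.296 in the untreated library. It was 0.781 in the thin limb at day 2 (102 cells) and 0.609 in distal convoluted or connecting tubule cells at day 2 (362 cells). In macrophages or monocytes at day 2 it was 0.0549 over 2635 cells, where Mt2 had a UMI in 5.81% of thinned cells. These cells share a library, and sparse counts pull such values toward 0, so they describe and do not rank the classes.

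Mtf1, the sensor of the pathway, was a low-count gene in every class. The levels of Mtf1 lay between 8.10 CPM (untreated proximal tubule) and 31.2 CPM (neutrophils at day 2, 28.3 to 34.3). Mtf1 was measured in 7 of 19 comparisons and called higher in 1, the proximal tubule at day 7, with 21.8 CPM at day 7 and 8.10 CPM untreated, a ratio of 2.70 (2.27 to 3.22). Over all genes, 14.4% of measured pairs were called higher, and 35.9% in the proximal tubule at day 7. The proximal ratios at day 2 (2.35, 1.48 to 3.58) and day 30 (2.33, 1.89 to 2.86) were of like size but came from under 20 CPM in both libraries. In the thick ascending limb, where Mt1 was highest, Mtf1 had 14.3 CPM untreated, 17.9 CPM at day 2, 18.1 CPM at day 7 and 20.9 CPM at day 30, with neighbouring intervals that overlap. Its day 30 ratio there was 1.47 (1.05 to 2.05), an interval above 1, and 1.12 relative to the median gene. Relative to the median gene of the class no Mtf1 comparison was called.

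Slc30a1, the zinc exporter, did not follow the order of the metallothioneins over the untreated classes. In the untreated library Slc30a1 was highest in endothelium (31.8 CPM, 24.4 to 40.6) and the proximal tubule (28.2 CPM, 26.1 to 30.5), followed by the thick ascending limb (21.4 CPM), principal cells (19.1 CPM), intercalated cells (17.9 CPM), distal convoluted or connecting tubule cells (13.7 CPM), thin limb (12.8 CPM) and urothelium (12.4 CPM), and neighbours in that order overlap, except the proximal tubule and the thick ascending limb (17.5 to 25.9). Slc30a1 was measured in 10 comparisons and called higher in 1, distal convoluted or connecting tubule cells at day 2, with 29.2 CPM at day 2 and 13.7 CPM untreated, a ratio of 2.14 (1.47 to 3.19). Over all genes, 14.4% of measured pairs were called higher, and 14.1% in this class at day 2. The call for Slc30a1 did not hold when the median gene of the class or a total without mitochondrial UMIs set the scale. In the thick ascending limb at day 2, where Mt1 was 2.90 times and Mt2 9.31 times the untreated level, Slc30a1 had 23.5 CPM, against 21.4 CPM untreated, a ratio of 1.10 (0.850 to 1.42). The interval of the Slc30a1 ratio lay above 1 in 4 of 19 comparisons and below 1 in 0. Beside the call these were intercalated cells at day 2 (1.69, 1.15 to 2.43), endothelium at day 30 (1.62, 1.08 to 2.41) and the thick ascending limb at day 7 (1.44, 1.01 to 2.03), all under 2-fold.
Within the proximal tubule Slc30a1 was higher late in cells that kept the proximal list: 28.9 CPM at day 2, 38.2 CPM at day 7 and 51.4 CPM at day 30 (43.5 to 60.2), against 28.2 CPM untreated. The day 30 ratio was 1.82 (1.52 to 2.17). In injured proximal cells it had 27.1 CPM at day 7 and 23.9 CPM at day 30 (20.4 to 27.8), near the untreated level. Macrophages or monocytes had 14.0 CPM at day 2, 18.1 CPM at day 7 and 22.1 CPM at day 30, and fibroblasts 5.38, 10.9 and 14.1 CPM.

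Slc39a14, the importer, was low in all classes of the untreated library, at 3.52 CPM in intercalated cells to 13.4 CPM in the proximal tubule among the 8 compared classes. It was measured in 5 of 19 comparisons, 0 of them at day 2, and called higher in 3. These were the thick ascending limb at day 7 (21.7 CPM, against 9.18 CPM untreated, a ratio of 2.37, 1.48 to 3.75), the proximal tubule at day 30 (34.8 CPM, against 13.4 CPM untreated, 2.60, 2.23 to 3.04) and endothelium at day 30 (25.7 CPM, against 9.58 CPM untreated, 2.69, 1.40 to 5.22). Of all genes measured in these comparisons, 21.6%, 34.6% and 9.90% were called higher in the same order, against 14.4% over all comparisons. Relative to the median gene of the class the limb ratio was 1.80 and the proximal ratio 1.81, both under the 2-fold rule. The endothelial values rest on 23 UMIs at day 30 and 19 untreated, and without cells with thick ascending limb markers the interval of that ratio held 1 (2.67, 0.980 to 8.41). At day 7 the proximal value was 22.2 CPM, a ratio of 1.66 (1.43 to 1.92), and without cells with limb markers it was 0.907 (0.649 to 1.27). That step left out most proximal cells, among them 2205 of 2883 untreated cells of the proximal list and 452 of 613 injured cells at day 7. It used unthinned counts, so it also selects on depth.
The day 30 level of Slc39a14 was highest in proximal cells that were not of the injured list. Cells of the proximal list had 11.1 CPM at day 2, 18.7 CPM at day 7 and 45.9 CPM at day 30 (38.5 to 54.3), against 13.4 CPM untreated, and the day 30 ratio was 3.42 (2.78 to 4.19). Untreated barcodes left out by the mitochondrial limit had more Slc39a14 and Slc30a1 per non-mitochondrial UMI than the kept untreated cells. The part of this in the proximal ratios of both genes was not tested. Injured proximal cells had 22.7 CPM at day 7 and 30.1 CPM at day 30. Late proximal cells, with Slc7a13 and no Slc5a2 UMI, had 71.9 CPM at day 30 (56.9 to 89.8, 91 cells), against 18.03 CPM untreated (15.3 to 21.2, 883 cells). Early proximal cells, with Slc5a2, the glucose cotransporter SGLT2, and no Slc7a13 UMI, had 32.2 CPM at day 30 (21.7 to 46.0, 85 cells), against 8.70 CPM untreated (6.30 to 11.7, 684 cells). Slc30a1 in the same late cells had 69.2 CPM at day 30, against 33.5 CPM untreated, and in the early cells 37.6 CPM, against 23.3 CPM untreated. Mt1 in the late cells was 83.0 CPM at day 30 (66.7 to 102), against 73.1 CPM untreated (67.4 to 79.2). In fibroblasts Slc39a14 had 10.2 CPM at day 2, 38.3 CPM at day 7 (28.9 to 49.7) and 20.9 CPM at day 30.

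**Figure D5:**
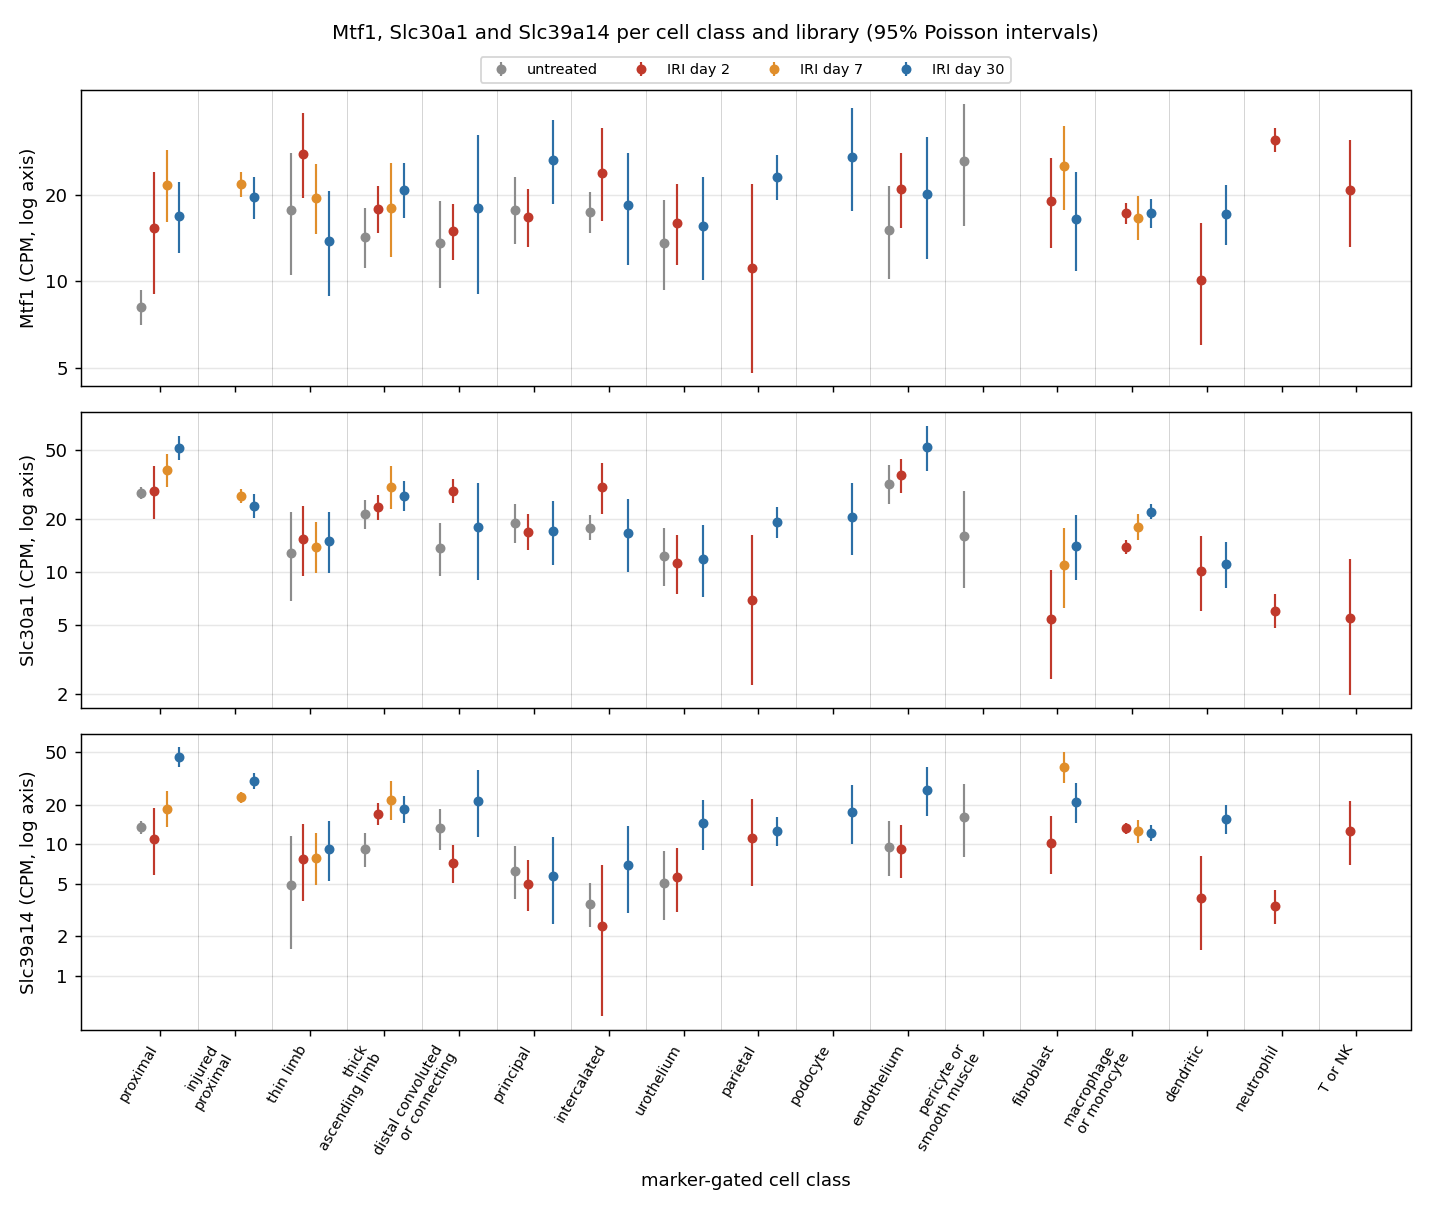
Levels of Mtf1, Slc30a1 and Slc39a14 in counts per 1000000 UMIs on log axes, for classes with at least 50 cells, 1 point per library with exact 95% Poisson intervals. Slc39a14 and Slc30a1 are highest in the proximal list at day 30 (45.9 CPM and 51.4 CPM), joined for Slc30a1 by endothelium at day 30 (51.5 CPM), while Mtf1 stays between 8.13 and 31.2 CPM.

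Over the 42 combinations of class and library with at least 50 cells, the gene of 6803 whose log2(CPM + 10) was most like Mt1 was Mt2 (Pearson r = 0.93), followed by Acsl4 (0.79), Kctd1 (0.74), Tfap2b (0.74) and Bzw2 (0.73). After Mt1, those most like Mt2 were Serf1 (0.72), Acsl4 (0.72), Ap2b1 (0.71) and Kctd1 (0.71). The nearest to Slc39a14 reached lower values: Tm7sf3, Itgb8, Parp3 and Ankib1 at 0.59 and Dpysl3 at 0.58. With Mt1, the other zinc genes had r of -0.01 (Mtf1), -0.08 (Slc30a1) and -0.08 (Slc39a14), and the sort gene Clu 0.64. Their mean levels over the combinations were 18.5, 20.3 and 13.4 CPM, against 1377 CPM for Clu. Low counts can pull r toward 0, so these values are not on an equal footing with that of Clu. The combinations share libraries and classes, so these values are descriptions.

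Of the other zinc exporters, 9 genes of the Slc30 family, 51 gene and class pairs were measured, and 3 were called higher and 3 lower, a share of each direction below the background of 14.4% and 8.21%. Slc30a5 was higher in intercalated cells (34.4 CPM, against 16.7 CPM untreated) and thin limb at day 2, and Slc30a7 in the proximal tubule at day 7 (20.7 CPM, against 7.64 CPM untreated). Slc30a2 was lower in distal convoluted or connecting tubule cells at day 2 (1.11 CPM, against 21.7 CPM untreated) and in the proximal tubule at day 7 (16.9 CPM, against 52.6 CPM untreated), and Slc30a9 in the thick ascending limb at day 2 (29.4 CPM, against 65.9 CPM untreated).
Among 13 other importers of the Slc39 family, 16 of 110 measured pairs were higher and 4 lower, against a background of 14.4% and 8.21%: the higher share is near it and the lower share below it. Slc39a1, an importer of the cell membrane, was higher in 7 comparisons, among them the thick ascending limb at day 2 (58.9 CPM), day 7 (59.1 CPM) and day 30 (54.9 CPM), against 25.9 CPM untreated. Slc39a6 was higher in 5, with 23.7 CPM in the proximal tubule at day 7, against 1.93 CPM untreated. Slc39a13 was higher in the proximal tubule at day 7 and day 30 (24.7 CPM and 26.1 CPM, against 8.77 CPM untreated) and lower in the thin limb at all times (38.2 to 44.1 CPM, against 120 CPM untreated). Slc39a8, the nearest relative of Slc39a14, was higher in the thick ascending limb at day 2 (25.2 CPM) and day 7 (28.3 CPM), against 8.56 CPM untreated, and lower in the thin limb at day 7.

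Mt3, the metallothionein best known from brain, went the other way in the thick ascending limb. It had 0.773 CPM at day 2, 0.603 CPM at day 7 and 0.766 CPM at day 30, against 24.9 CPM untreated, from 5, 1 and 3 UMIs after IRI and 122 untreated. The ratios of Mt3 were 0.0311 (0.00991 to 0.0745), 0.0242 (0.000609 to 0.138) and 0.0308 (0.00626 to 0.0921). Mt4 was not measured in any comparison.

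For copper handling (10 genes), 14 of 137 measured pairs were higher, a share below the background of 14.4%, and 19 were lower, a share above that of 8.21%. Ccs, the copper chaperone of superoxide dismutase, was lower in 9 of 19 comparisons, with 63.2 CPM in the proximal tubule at day 30, against 171 CPM untreated. Sco2, which delivers copper to cytochrome oxidase, was lower in 5, and Cox17, which hands it copper, was higher in 4, with 262 CPM in principal cells at day 2, against 117 CPM untreated. Slc31a2, which encodes the copper transporter CTR2, was higher in 6 comparisons (49.2 CPM in the proximal tubule at day 7, against 7.09 CPM untreated) and lower in the thin limb at all 3 times.

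Of 4 other genes known to be controlled by MTF1, 3 had rows, and 12 of their 56 measured pairs were higher and 4 lower, against a background of 14.4% and 8.21%. Slc40a1, the iron exporter ferroportin, was higher in 11 of 18 comparisons, with 74.3 CPM in the thin limb at day 2, against 6.89 CPM untreated, and 91.2 CPM in the thick ascending limb at day 2, against 25.5 CPM untreated. Gclc, a subunit of the enzyme that starts glutathione synthesis, was higher in 1, the thick ascending limb at day 2 (175 CPM, against 72.6 CPM untreated). Ndrg1, also a hypoxia gene, was lower in 4, with 19.6 CPM in urothelium at day 2, against 146 CPM untreated.
Genes that respond to glucocorticoids (7 genes, 85 measured pairs) had 13 higher and 9 lower, shares near the background of 14.4% and 8.21%. Tsc22d3, the leucine zipper GILZ, was higher in 6 comparisons and lower in 1, with 23.0 CPM in the thick ascending limb at day 2, against 9.38 CPM untreated. Fkbp5, a chaperone of the glucocorticoid receptor, was higher in 4, Errfi1 in 1 with 1 lower, and Sgk1, an aldosterone and glucocorticoid target, was higher in 1 and lower in 6 (36.8 CPM in principal cells at day 2, against 199 CPM untreated).
Of STAT3 and acute-phase genes (7 genes), 56 of 83 measured pairs were higher and 0 lower, against a background of 14.4% and 8.21%. Socs3, the feedback inhibitor of this pathway, and Lcn2, the secreted injury protein NGAL, were higher in all 19 comparisons, Stat3 in 13 and Osmr, the oncostatin M receptor, in 4. In the thick ascending limb Socs3 had 139 CPM at day 2, 62.7 CPM at day 7 and 240 CPM at day 30, against 5.10 CPM untreated, so it was highest at day 30. The part of this pathway in the metallothionein levels was not tested.
Immediate-early and heat shock genes, which tissue dissociation is known to raise, were higher in 144 of 259 measured pairs and lower in 18, against a background of 14.4% and 8.21%. Fos was higher in 13 comparisons, Btg2 in 12 and Atf3 in 14, and lower in 2, 2 and 0. At day 2 the list had 13 of 14 genes higher in the thick ascending limb, and 2 higher and 5 lower in the thin limb. Of all genes measured at day 2, 12.8% were higher and 10.3% lower in the thick ascending limb, and 8.77% and 15.8% in the thin limb. The part of dissociation in the metallothionein levels was not tested.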

How the data were processed

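The authors deposited 1 single-cell matrix of whole-number UMI counts per gene and barcode for each of 4 libraries, made with Cell Ranger 7.0.1 on mm10, per the submitters' processing notes; the matrix headers name software version 3.0.1. Per the labels' protocols, kidneys were digested with collagenase, dispase and DNase before the GFP sort and 10x 3′ v3.1 libraries. From these counts, barcodes with at least 500 UMIs and 300 genes and at most 50% mitochondrial UMIs were kept, and doublets called with Scrublet (scanpy 1.11.5) were removed. The caller marked 2 untreated barcodes, and 702, 10 and 556 at day 2, 7 and 30, so doublets may remain in the untreated and day 7 libraries. At or above the mean score threshold of the day 2 and day 30 libraries lay 209 untreated barcodes.

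Cells were gated, not clustered: a class needed UMIs of at least 2 of its markers and a mean marker score 1.5 times that of the next of 18 classes. Gate thresholds, the demand for 2 proximal markers in cells of the injured list, the splits within a class and the split by thick ascending limb markers were set after the data were seen, and the genes and lists were chosen with earlier results of these data known. The split by limb markers used unthinned counts, so it depends on depth. In the untreated library 2205 of 2883 cells of the proximal list, 315 of 362 principal and 308 of 334 distal convoluted or connecting tubule cells had 2 or more such markers. UMIs were summed per class and library and scaled to counts per 1000000 (CPM), with exact 95% Poisson intervals; ratios have exact conditional binomial intervals, and shares have Clopper-Pearson intervals, with shares of cells taken after thinning each cell to 2000 UMIs. UMIs of 1 library are not independent mice, so intervals cover counting error only. Named beyond the 5 genes are up to 4 members of each of 8 lists, those called in most comparisons, and the 5 genes most like Mt1, Mt2 and Slc39a14. Sums were made with numpy 2.4.6, scipy 1.17.1 and pandas 2.3.3, and the ratio step was tested on simulated data. 13 alternatives were planned and 4 added after the data were seen.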

Additional observations from a re-analysis of the deposited data

Results flagged for a closer look

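At day 30 Mt1 lay on opposite sides of untreated in 2 classes, at a ratio of 4.54 (3.72 to 5.58) in the thin limb and 0.764 (0.700 to 0.832) in principal cells. In principal cells with 2 or more thick ascending limb markers Mt1 was not lower, at 675 CPM, against 653 CPM untreated. Slc39a14 did so at day 2, at a ratio of 1.85 (1.30 to 2.68) in the thick ascending limb and 0.543 (0.333 to 0.892) in distal convoluted or connecting tubule cells, with under 20 CPM in all 4 values. With 1 library a group neither difference between classes was tested.

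Among the 2739 untreated barcodes left out for more than 50% mitochondrial UMIs, Slc30a1 and Slc39a14 were higher than in the kept untreated cells when mitochondrial UMIs were taken out of both totals. Slc30a1 had 44.2 CPM in the left-out barcodes and 27.8 CPM in the kept cells, a ratio of 1.59 (1.36 to 1.85). Slc39a14 had 28.0 CPM and 12.1 CPM, a ratio of 2.32 (1.89 to 2.83). Mt1 had 330 CPM in the left-out barcodes and 536 CPM in the kept cells, a ratio of 0.615 (0.583 to 0.648). These barcodes were not gated, and the part of cell type in these values was not tested.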

How the results depend on the processing

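The number of class comparisons called higher was 12 for Mt1, 18 for Mt2, 1 for Mtf1, 1 for Slc30a1 and 3 for Slc39a14, and 0 were called lower. Of the values of single comparisons, 272 of 287 kept their side of the rule for Mt1 and 275 of 287 for Mt2, over all alternatives, and no called ratio changed direction. Part of these values could not move, so the shares do not measure robustness. A 1.5-fold rule or no minimum level cannot remove a call, and every Mt1 comparison met the 50 CPM minimum. The alternatives on the proximal gates change proximal cells only. Comparisons left with too few cells are not among the 287. With the median gene of a class as scale, the count was 0 for Mtf1, 0 for Slc30a1 and 1 for Slc39a14. With mitochondrial UMIs left out of the total it was 2 for Mtf1 and 0 for Slc30a1, and with 30% of each total taken off as free RNA it was 2 for Slc30a1. Only 4 comparisons had enough cells of at least 18362 UMIs, the lowest total at day 7: there the counts were 3 for Mt1, 4 for Mt2 and 0 for Slc30a1. A stricter gate left 14 comparisons, with 2 for Mtf1 and 1 for Slc39a14, and gating on thinned counts gave 2 for Mtf1. A minimum of 50 CPM gave 0 for Mtf1, 0 for Slc30a1 and 0 for Slc39a14, no minimum gave 3 for Mtf1 and 5 for Slc39a14, and a 1.5-fold rule gave 3 for Slc30a1. Without cells with thick ascending limb markers, an alternative added after the data were seen that left 11 comparisons, Mt1 was higher in 5 and Mt2 in 11. A comparison left with too few cells, or a gene no longer measured in it, cannot be called, by construction. Other calls were lost because the ratio fell in a comparison that stayed. Without cells with limb markers the Mt1 ratio in endothelium at day 2 was 1.61. Under the stricter gate the Slc39a14 ratio in endothelium at day 30 was 1.96. Why such ratios moved, and why other counts changed, was not tested.

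Over all alternatives the Mt1 ratio ran from 14.1 to 27.8 in the thin limb at day 2, from 2.40 to 3.04 in the thick ascending limb at day 2 and from 1.61 to 4.66 in endothelium at day 2. In the proximal tubule at day 2 the Mt1 ratio ran from 1.95 to 13.8 and the Mt2 ratio from 3.62 to 56.8, both highest when the injured list needed no proximal markers. Mtf1, Slc30a1 and Slc39a14 were measured in 7, 10 and 5 of 19 comparisons, the others having under 20 CPM in both libraries, and depth limits the width of their intervals. No paired analysis was possible because each group is 1 library.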

Other observations

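Podocyte-gated cells, which had too few untreated cells for a comparison, had 1028 CPM of Mt1 at day 30 (91 cells), behind the thick ascending limb and the distal convoluted or connecting tubule among the gated classes of that library with at least 50 cells. The tenth of podocyte-gated cells with most Mt1 held 66.8% of its UMIs after thinning. Mt2 had 176 CPM in them. Parietal-gated cells had 561 CPM of Mt1 at day 2 (61 cells) and 173 CPM at day 30 (529 cells). Of the day 2 parietal cells, 12 with UMIs of 2 or more thick ascending limb markers had 1714 CPM, and the other 49 had 128 CPM. Cells that passed no gate had 2194 CPM of Mt1 at day 2, 880 CPM at day 7 and 550 CPM at day 30, against 681 CPM untreated.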
